A study of Mus musculus with 26 samples.

Results

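The regions described here were open, by the deposited ATAC-seq peak lists, in both libraries of freshly sorted mouse pre-B cells and in none of the 6 libraries of cultured pre-B cells. Peaks of the 8 lists that shared at least 1 bp were merged on chromosomes 1 to 9 and 13 to 19 of the mm9 genome build, leaving out the stretch of chromosome 6 from 67 to 71 Mb that holds the kappa light chain locus. Of 58551 merged regions, 13564 had a peak in both sorted lists and in no cultured list (23.2% of all regions), and they are called sorted-only regions below. Without sorted replicate 2, when the rule asks for a peak in 1 sorted list only, the count was 21501 (38.0%). They were chosen by the presence and absence of peaks in these same 8 lists, so the values from the lists are given as a description, with no test.

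The series addresses how CXCR4, which cells use to sense the chemokine CXCL12, acts in recombination of the kappa light chain locus and late B cell development. The ATAC-seq groups had 2 libraries each. One was labelled CXCR4-/- small pre-B and came from flow-sorted primary mouse progenitors. The other 3 were cultured pre-B cells whose labels name a medium and no genotype: IL7+ (with interleukin 7), IL7- (without it) and IL7- CXCL12+ (without it, with CXCL12). RNA-seq of groups with the same labels, apart from exceptions given with the processing, and of sorted wild-type small pre-B cells, was used only to check the labels. No ATAC-seq of sorted wild-type cells was analysed here, so sorting, culture and loss of CXCR4 cannot be told apart in what follows. The same holds for any difference between the animals used, such as sex, which the labels do not give. Age, strain, the CXCR4 deletion itself and whether replicates came from separate animals or cultures are not given in the sources used here, so the spread between replicates may be technical.

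ATAC-seq uses a transposase that inserts sequencing adapters into DNA where it is not covered by nucleosomes, and peaks mark stretches with more insertions than their surroundings. Such stretches are typically promoters, enhancers, insulators and other sites where proteins bind DNA. Small pre-B cells are the resting progenitors of the bone marrow that have left the interleukin 7 driven expansion phase and rearrange their light chain genes. Pre-B cells grown with interleukin 7 model the expansion phase, and removal of interleukin 7 moves them towards the resting one. In a bulk library, a site open in more of the cells and a site more open in each cell cannot be told apart.

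Each peak carried the authors' score, the −log10 of a p or q value, so that a difference of 1 stands for a factor of 10 in that value. The score grows with depth and with signal over background, and which of p and q it holds is not given in the sources used here. Every deposited score was at least 5. Within the 16 chromosomes the sorted libraries had 52777 and 45722 peaks, and the cultured ones 26634 and 22252 (IL7+), 30366 and 25029 (IL7-) and 25415 and 21407 (IL7- CXCL12+). Every sorted list was therefore longer than every cultured list, and the read depth behind the lists is unknown. The sorted lists also stood apart elsewhere. They had 7 and 9 peaks on chromosome Y against 110 to 122 in the cultured lists. On chromosome 10, which is outside the counted area, they had 7.28% and 7.67% of their peaks, against at least 13.6%. Whether the sex of the animals differed between the sorted and cultured groups was not tested. What else lies behind these differences was not tested either, and sex, sorting, culture and loss of CXCR4 cannot be told apart.

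The labels were checked by RNA. Cxcr4 was at 37.2 and 409 CPM (TMM-scaled CPM, the count relative to the library's scaled total) in the 2 sorted libraries labelled CXCR4-/-, 943 and 922 in sorted wild type, 113 and 112 with IL7+, 169 and 171 with IL7- and 237 and 226 with IL7- CXCL12+. The second CXCR4-/- library was thus above every one of these cultures, and it goes against its label in part. All 8 small pre-B markers reported (such as Pax5, Rag1 and Il2ra) reached 1 CPM in the sorted CXCR4-/- and the cultured libraries, with sums of 12179 and 13645 CPM against 6226 to 11085. All 10 myeloid markers, among them S100a8 and Elane, reached 1 CPM in the sorted libraries, where they summed to 6844 and 1137 CPM, and 9 of 10 did so in every culture (139 to 650 CPM). All 5 stromal markers reached 1 CPM in every culture (309.9 to 1736 CPM), and 1 of 5 did in the sorted libraries (10.4 and 4.71 CPM). Markers of pro-B and large pre-B cells gave 6 of 6 at 1 CPM in both kinds of library (2884 and 3105 against 1658 to 3919 CPM), mature B cell markers 6 of 8 (598 and 725 against 394 to 934 CPM) and plasma cell markers 4 of 5 (188 and 205 against 129 to 253 CPM). Plasmacytoid dendritic cell markers gave 2 of 4 in the sorted and 3 of 4 in the cultured libraries (192 and 218 against 200.1 to 234 CPM), and megakaryocyte markers 1 of 3 and 2 of 3 (9.15 and 1.96 against 10.7 to 21.8 CPM). T cell markers gave 1 of 6 at 1 CPM in both kinds of library (30.8 and 40.2 against 29.4 to 71.4 CPM) and natural killer cell markers 1 of 4 (8.48 and 7.40 against 1.60 to 2.20 CPM). Red cell markers gave 1 of 5 in the sorted and 0 of 5 in the cultured libraries (34.3 and 2.79 against 0.173 to 1.43 CPM), with Hba-a1 at 0 in both. The RNA and ATAC-seq libraries are not said to be the same preparations, and the part of other cells in the sorted-only regions was not tested.

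Set beside the other classes of region, the sorted-only class was large. Of 41970 regions with a peak in both sorted lists, 32.3% had no cultured peak and 39.2% had one in all 6 cultured lists (16437 regions in all 8 lists, 28.1% of all regions). The opposite class, open in all 6 cultured lists and in neither sorted list, held 493 regions (0.842%). Of 35040 regions with a peak in any cultured list, 4378 (12.5%) had none in either sorted list. Regions with peaks in both lists of 1 cultured group and in none of the other 6 lists numbered 179 for IL7+ (0.306%), 79 for IL7- (0.135%) and 16 for IL7- CXCL12+ (0.0273%). These counts are not symmetric with the sorted one, because 4 of the 6 lists that had to lack a peak were then cultures as well.

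The length of the lists moved the count with it. With each of the 8 lists reduced to its 21407 highest-scoring peaks, the length of the shortest, 2503 regions were sorted-only (7.74%) and 2083 were in all 6 cultured lists and neither sorted list. The lowest score kept was then 23.9 and 18.5 in the sorted lists and 5.00 to 9.17 in the cultured ones. The 2 counts are therefore not matched by score, and a region counted as lacking a peak may have a deposited one below the cut. At that length 1668 of the 13564 sorted-only regions (12.3%) were among those counted, and the other 835 regions counted overlapped none of them. With only the sorted lists shortened, to the 30366 peaks of the longest cultured list, 4397 of the 13564 regions remained (32.4%), and the opposite class held 1293 regions. The sorted lists were there cut at scores of 14.2 and 10.7. How much of the sorted-only class lies below what the cultured libraries could detect was not tested.

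Most sorted-only regions were weak. Their median score was 12.7 in sorted replicate 1 (quartiles 8.79 and 19.4) and 9.96 in sorted replicate 2 (quartiles 7.20 and 15.2). Regions in all 8 lists had medians of 51.5 and 41.3 in the same libraries. The lower of the 2 sorted scores, used below to rank regions, had a median of 9.13 and was under 10 in 7543 sorted-only regions (55.6%). Sorted replicate 1 gave the higher score in 9878 regions (72.8%), and in 9134 (67.3%) the 2 scores were within 1.5 times of each other. Across regions, which are not independent, the 2 scores had a Pearson r of 0.887 and a Spearman rho of 0.729, against 0.962 and 0.959 over the regions in all 8 lists.

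**Figure D1:**
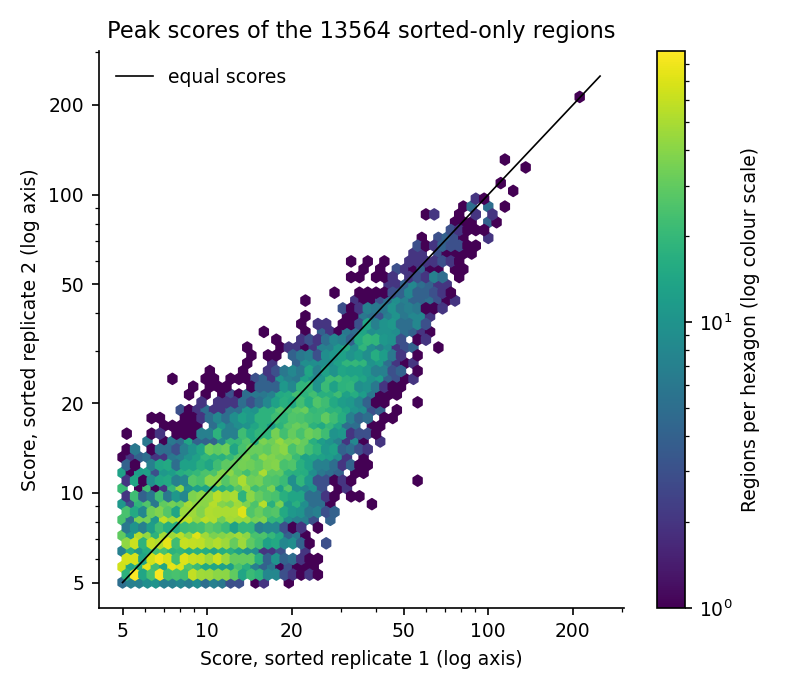
Score of each of the 13564 sorted-only regions in sorted replicate 1 (horizontal, log axis) and sorted replicate 2 (vertical, log axis), with the number of regions per hexagon as colour on a log scale and a line of equal scores. Most regions lie below 20 in both libraries and below the line, while the strongest one, at 211.6 and 212.8, lies on it.

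The share of regions that lacked any cultured peak was lower at higher scores in the sorted cells. At a lower score of 5 to under 10, 7543 of 11705 regions open in both sorted libraries were sorted-only (64.4%). The share was 39.2% at 10 to under 20 (4285 of 10937), 18.7% at 20 to under 30 (1063 of 5685) and 8.01% at 30 to under 50 (530 of 6617). It was 2.46% at 50 to under 75 (105 of 4270), 1.83% at 75 to under 100 (33 of 1805) and 0.526% at 100 or more (5 of 951). Over the same bands the share with a peak in all 6 cultured lists went from 6.45% to 97.6%. A sorted-only region with a high score was rare.

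The same order held from the other side. Among regions in all 6 cultured lists, ranked by the lowest of the 6 scores, 7.33% (328 of 4473) lacked a peak in both sorted lists at 5 to under 10. That share was 3.37% at 10 to under 20, 1.29% at 20 to under 30, 0.315% at 30 to under 50 and 0.0973% (4 of 4111) at 50 or more. A minimum over 6 lists is a stricter measure than one over 2, so the bands of the opposite sides are not matched.

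**Figure D2:**
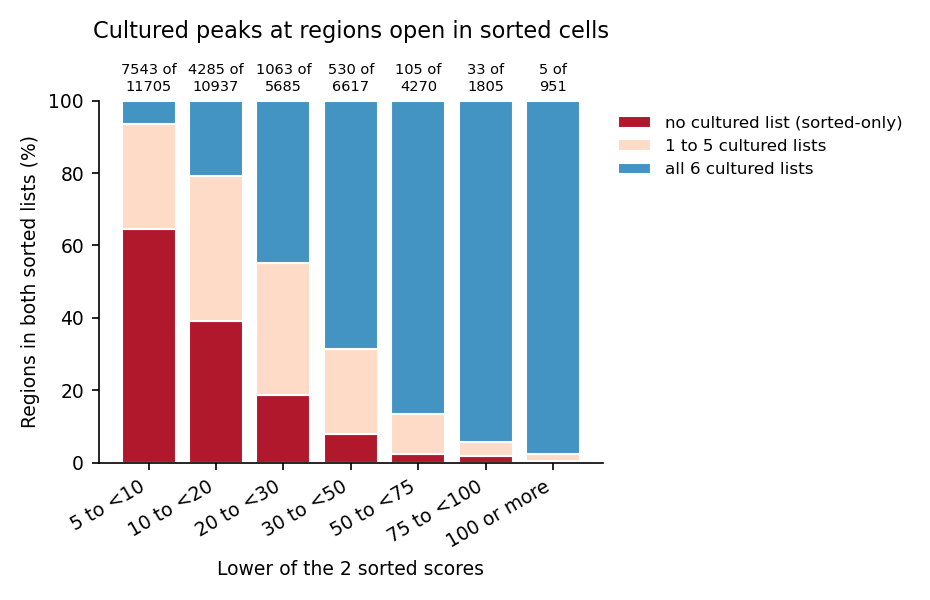
Regions with a peak in both sorted lists, in bands of the lower sorted score (horizontal), split by the percent with a peak in none, in 1 to 5 or in all 6 cultured lists (vertical), with the number of sorted-only regions and of all regions above each bar. The sorted-only share falls from 64.4% in the lowest band to 0.526% in the highest.

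Regions just outside the rule were weak too. A further 3350 regions had a peak in both sorted lists and in 1 cultured list, with a median score of 6.06 in that list and a median lower sorted score of 11.4. The single cultured peak was in IL7- replicate 1, the longest cultured list, for 1695 of them (50.6%), and in IL7- CXCL12+ replicate 2, the shortest, for 82 (2.45%). At the edge, chr1:36380836-36381285 scored 14.7 and 5.20 in the sorted libraries and was kept out of the class by a peak of 5.00 in IL7- CXCL12+ replicate 1. Just outside as well, chr9:21431818-21432254 scored 18.6 and 19.4 in the sorted libraries and 5.00 in the same cultured one. Just inside, chr9:98863678-98864159 scored 5.00 and 9.38, and chr4:66489360-66489824 (8.48 and 6.79) lay 1 bp from a cultured peak. A peak in 1 sorted list and no cultured list was seen at 9947 regions, 7832 in sorted replicate 1 (median score 6.68) and 2115 in replicate 2 (median 6.06).

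Sorted-only regions were narrow. Their median width was 444 bp (quartiles 388 and 529, range 207 to 1969), against 967 bp for the regions in all 8 lists and 471 bp for those in all 6 cultured lists alone. Regions in more lists are built from more peaks, which widens them. The single peaks of the sorted-only regions, which are not affected by merging, had median widths of 415 and 396 bp, against 489 and 495 bp over all peaks of the 2 sorted libraries in the counted area. By score, the median width was 412 bp at a lower score of 5 to under 10, 465 bp at 10 to under 20, 520 bp at 20 to under 30 and 556.5 bp at 30 to under 50. It was 614 bp at 50 to under 75 and 641 bp at 75 to under 100, but 465 bp for the 5 regions at 100 or more. Of the sorted-only regions 192 (1.42%) reached 1000 bp, against 46.6% of the regions in all 8 lists.

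The rule itself asked for peaks of both sorted lists in a region, and it fixes that single peaks overlap. In 13495 regions (99.5%) each sorted list had a single peak, and the other 69 were made of 3 peaks. The 2 peaks overlapped by a median of 100% of the shorter one, and their centres were a median of 22.5 bp apart.

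**Figure D3:**
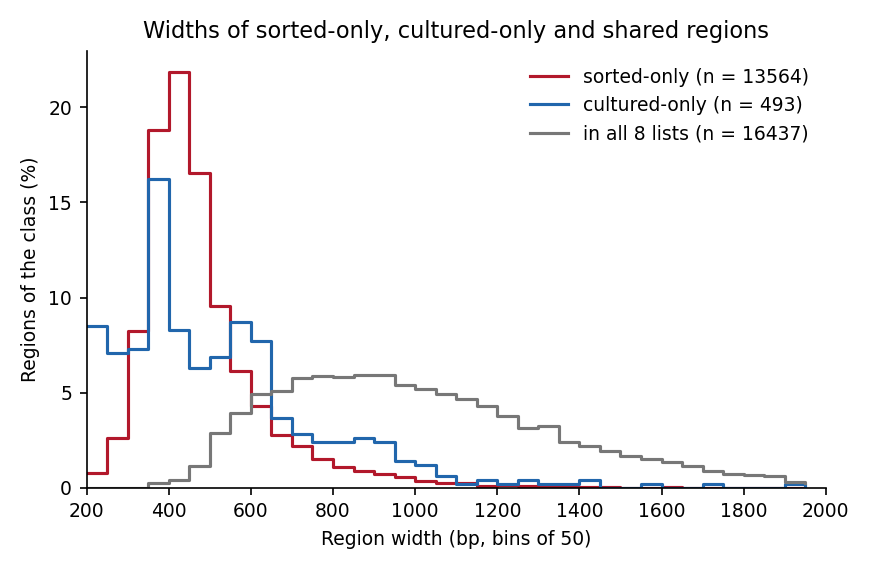
Percent of regions (vertical) by width in bins of 50 bp (horizontal) for the 13564 sorted-only regions, the 493 regions in all 6 cultured lists and neither sorted list, and the 16437 regions in all 8 lists. Widths of 2000 bp and more, held by 0.609% of the cultured class and 1.64% of the shared class, are beyond the axis. The sorted-only curve peaks between 400 and 450 bp and the shared curve is broad around its median of 967 bp.

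The widest sorted-only regions were mostly faint. The widest, chr2:51408674-51410642, spanned 1969 bp with scores of 6.64 and 8.63. It was followed by chr6:120442241-120444208 (1968 bp, 11.1 and 12.8) and chr2:51801661-51803518 (1858 bp, 8.04 and 11.4). Among the 10 widest, chr8:63868696-63870268 (1573 bp) alone scored above 50, with 73.2 and 70.4. Next in score came chr8:125332354-125333996 (1643 bp, 34.4 and 24.6).

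A score of at least 50 in both sorted libraries was reached by 143 sorted-only regions (1.05% of the class and 0.244% of all regions), called strong below. They were 2.04% of the 7026 regions open at that score in both sorted libraries, 90.0% of which had a peak in all 6 cultured lists. With the 8 lists cut to 21407 peaks the lowest score kept was 23.9 and 18.5 in the sorted lists, so the cut could remove none of the 143. Their median width was 614 bp.

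The strongest of all, chr18:90771304-90772031 (728 bp), scored 211.6 and 212.8. Its last base was the highest coordinate of any peak on chromosome 18 in the 8 lists, and the nearest cultured peak was 21415 bp away. Chromosome lengths were not used here, so whether this region lies at the very end of the chromosome was not tested. The next, chr9:54139161-54139564 (404 bp), scored 132.8 and 124.1 with 209426 bp to the nearest cultured peak. It was followed by chr8:68354689-68355129 (441 bp, 118.4 and 131.3, 471654 bp to a cultured peak). Chr4:93867355-93867819 (465 bp) scored 110.8 and 108.0 and lay 354745 bp from one. The next was chr3:126716770-126717364 (595 bp, 124.1 and 101.0), with a cultured peak at 14791 bp. These 5 are the sorted-only regions with a lower score of 100 or more, and no cultured peak lay within 10 kb of any of them.

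The rest of the 20 strongest scored 87.5 to 111.5 in sorted replicate 1 and 87.4 to 99.4 in replicate 2. Chr6:76798098-76798566 (111.5 and 92.8) was among the most isolated, with 760427 bp to a cultured peak and 1786439 bp to another sorted-only region. Chr18:56352728-56353800 (98.1 and 93.4) was wide for this class at 1073 bp, and chr5:107902048-107902353 (88.0 and 88.7) was the narrowest of the 20 at 306 bp. Chr13:101206533-101207124 (103.9 and 87.4) had another sorted-only region 246 bp away. Others were chr4:87700902-87701313 (99.2 and 96.6), chr6:11781126-11781566 (103.0 and 92.5) and chr1:33227001-33227315 (89.3 and 97.6). In all 20 the 2 libraries' scores were within 1.23 times of each other. The 20 lay on 11 chromosomes, 5 of them on chromosome 2, and 2 of the 20 had a cultured peak within 10 kb.

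**Figure D4:**
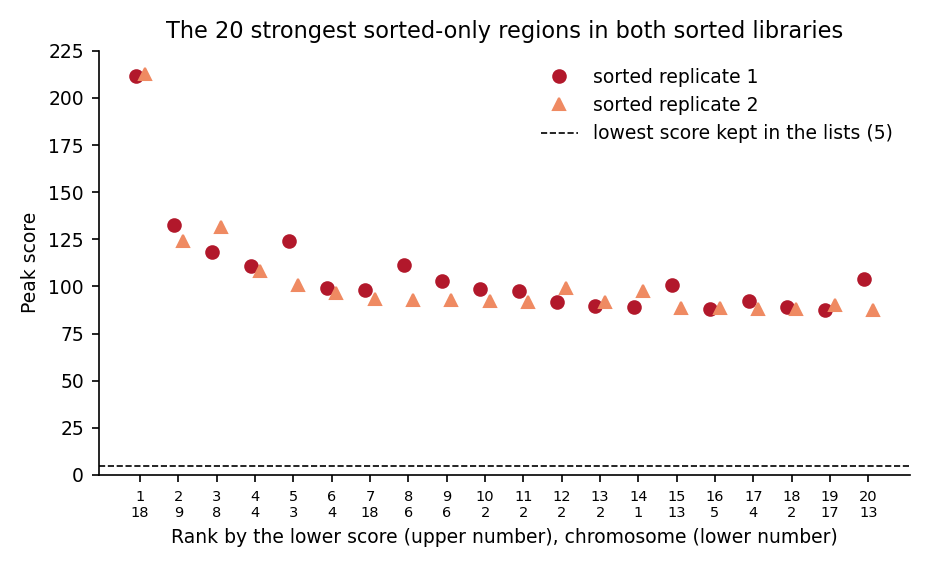
Scores in sorted replicate 1 (circles) and sorted replicate 2 (triangles) of the 20 strongest sorted-only regions, by rank and chromosome (horizontal), with the lowest deposited score of 5 as a dashed line. The first region stands at 211.6 and 212.8, and the scores of the others lie between 87.4 and 132.8.

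Among chromosomes with no region in the 20 strongest, chromosome 16 had its strongest at chr16:83263517-83263930 (85.8 and 92.0), 1263654 bp from a cultured peak. The strongest on chromosome 7 was chr7:90087904-90088572 (78.4 and 81.0), on chromosome 14 chr14:102110517-102111157 (79.7 and 77.9), on chromosome 15 chr15:44622652-44622961 (76.0 and 70.6) and on chromosome 19 chr19:54173806-54174818 (87.1 and 77.9). Each of the 16 chromosomes thus held a strong sorted-only region.

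Some strong regions were gathered in 2 groups, on chromosomes 4 and 2, which were chosen after the values were seen. Those of the first were evenly spaced and those of the second were not. On chromosome 4, from 88422082 to 88449353 (27.3 kb), 10 regions scored at least 50 in both sorted libraries, at distances of 2779 to 3096 bp between neighbouring centres (median 2929 bp). Of these 8 were sorted-only. They scored 64.6 to 76.5 in replicate 1 and 60.4 to 72.3 in replicate 2, and they were 614 to 957 bp wide. The other 2 scored 59.2 to 67.5 in the sorted libraries and had weak cultured peaks: chr4:88427966-88428879 in 3 cultured lists (5.70 to 7.89) and chr4:88433771-88434676 in 4 (6.43 to 8.52).

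On chromosome 2, from 175540967 to 177692632 (2152 kb), 29 regions scored at least 50 in both sorted libraries, at 28518 to 292078 bp between neighbouring centres (median 62925.5 bp), and 14 of them were sorted-only. The 14 scored 57.1 to 101.3 in replicate 1 and 61.5 to 99.4 in replicate 2, were 771 to 1159 bp wide, and included all 5 of the 20 strongest that lay on this chromosome. Among the 14 there were 4 pairs of neighbours whose centres lay 34.2 to 34.3 kb apart, such as chr2:175929754-175930613 (89.3 and 87.9) with chr2:175963913-175965033 (89.6 and 91.9), and chr2:176096691-176097845 (97.7 and 92.0) with chr2:176131078-176131870 (98.6 and 92.5). The other 9 distances between neighbours of the 14 ran from 62.9 to 449 kb. The other 15 regions had cultured peaks, 11 of them in all 6 lists, at scores from 5.44 to 72.6. At chr2:175868048-175868988 the scores were 109.2 and 107.7 in the sorted libraries and 53.6 to 72.6 in the cultured ones. At chr2:176990634-176991739 they were 135.0 and 116.1 against 18.0 to 28.6. Since the regions of both groups were picked for high sorted scores, nothing is read from their sorted scores being above the cultured ones.

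Whether the regions of either group share sequence was not tested. Without the 2 groups 121 strong regions remained.

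**Figure D5:**
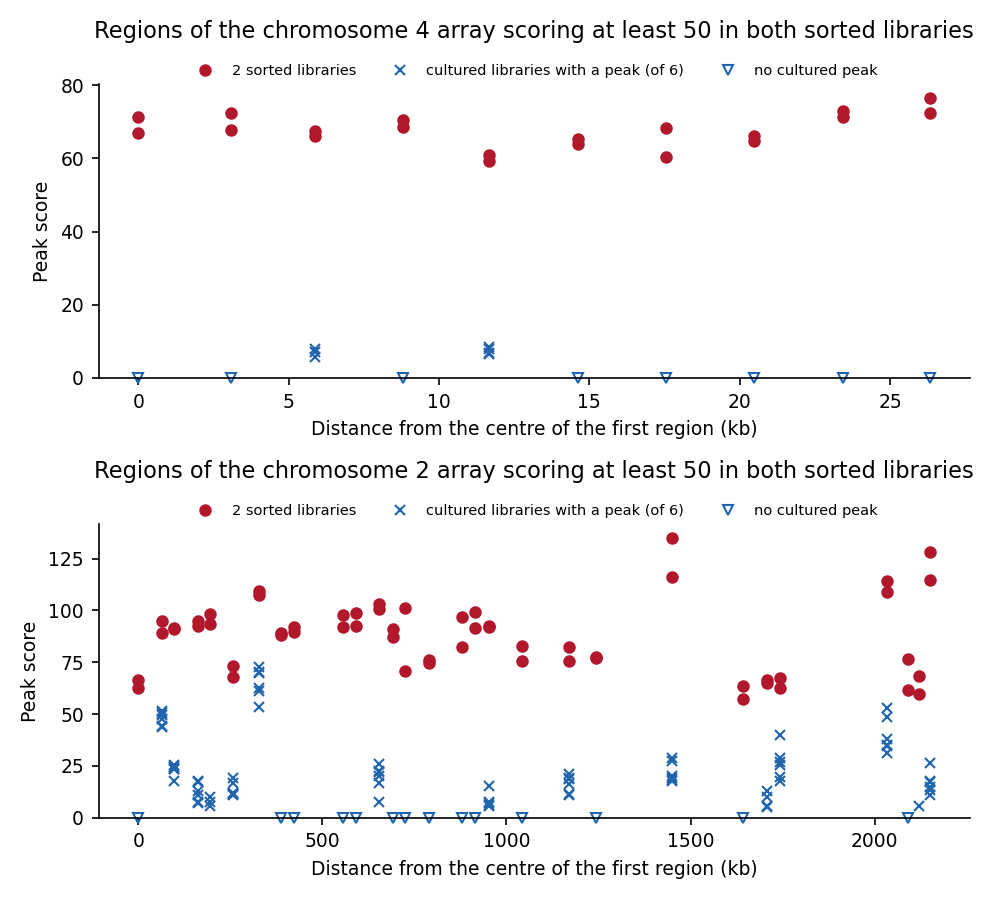
Scores of the regions with at least 50 in both sorted libraries in the chromosome 4 group (upper) and the chromosome 2 group (lower), against the distance of each region's centre from that of the first (kb). Circles are the 2 sorted libraries, crosses the cultured libraries with a peak and open triangles at 0 mark regions with no cultured peak. The upper regions are 2779 to 3096 bp apart and the lower ones 28518 to 292078 bp. The regions were picked for high sorted scores, so the height of the circles over the crosses follows from that choice.

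Across chromosomes the sorted-only class was spread widely. Its share of all merged regions ran from 19.9% on chromosome 7 (891 of 4488) and 20.2% on chromosome 17 (640 of 3170) to 26.2% on chromosome 18 (584 of 2231) and 26.5% on chromosome 1 (1399 of 5276), around 23.2% over all 16. No chromosome had none, and none held more than 10.3% of the class.

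Within chromosomes the median gap to the nearest cultured peak was larger for strong members than for weak ones. The median gap from a sorted-only region to the nearest peak of any cultured list was 7907.5 bp, with 56.0% within 10 kb, 11.5% within 1 kb and 5.56% beyond 100 kb. By score, the median gap was 7721 bp at a lower score of 5 to under 10, 7823 bp at 10 to under 20 and 7984 bp at 20 to under 30. It was 10645.5 bp at 30 to under 50, 17754 bp at 50 to under 75, 60765 bp at 75 to under 100 (33 regions) and 209426 bp at 100 or more (5 regions). Of the strong members 28.7% had a cultured peak within 10 kb. Of the 143 strong members, 8 belonged to the chromosome 4 group and 14 to the chromosome 2 group. The median of 60765 bp is the gap of chr2:175929754-175930613, a region of the chromosome 2 group. Gaps by score without the 2 groups were not computed. Score was used by the ranking and the absence of an overlapping peak by the rule, so the gap is not independent of how the regions were chosen. Gaps by score were not computed for regions that had a cultured peak, and nothing further is read from the order.

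With the full lists, sorted-only regions were about as close to each other as shared regions were to them. The median gap to another sorted-only region was 19948.5 bp (32.1% within 10 kb, but 10.0% with lists of equal length and 15.6% with shortened sorted lists), and from a region in all 8 lists to a sorted-only one it was 21774 bp (31.4%). From one region in all 8 lists to another it was 16830 bp (35.4%). Of the sorted-only regions, 54.1% had no sorted-only region as the next region on either side, 38.2% had one on 1 side and 7.70% on both sides, against 59.5%, 34.5% and 6.04% of the regions in all 8 lists. Regions in all 6 cultured lists and neither sorted list lay at a median of 72648 bp from the sorted-only class and 47861 bp from the regions in all 8 lists, from which sorted-only regions lay at 17104 bp.

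The 5 windows of 1 Mb with most sorted-only regions, chosen for that number, are given here. In windows of 1 Mb the median was 5 sorted-only regions of 25 regions. The most, 37, were found in the window from 53 to 54 Mb of chromosome 14 (37 of 83 regions, 44.6%) and in that from 149 to 150 Mb of chromosome 5 (37 of 104, 35.6%). Next were chromosome 3 from 143 to 144 Mb (31 of 57, 54.4%), chromosome 6 from 148 to 149 Mb (31 of 63, 49.2%) and chromosome 1 from 174 to 175 Mb (30 of 73, 41.1%). All 5 windows also held more regions of any kind than the median window. The chromosome 14 window held no strong region and reached a lower score of 49.7, whereas the chromosome 3 window held 3 strong regions. Strong regions occurred in 117 windows.

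Some sorted-only regions followed one another over long stretches without any cultured peak. Stretches with at least 8 such regions numbered 15, and the 6 with the most, chosen for that number, are given here. On chromosome 1, 14 sorted-only regions from 189208328 to 190797362 lay in 1601 kb free of cultured peaks, and the highest lower score among them was 17.2. On chromosome 3, 13 regions from 143392555 to 143649521 and 11 from 143717397 to 143833871 lay in 320.4 kb and 147 kb without a cultured peak. The strongest of these were chr3:143577511-143578322 (80.5 and 67.3) and chr3:143813724-143814454 (91.8 and 69.4). A second stretch of chromosome 1 held 13 regions from 66276929 to 66741222 in 472 kb, led by chr1:66329046-66329626 (98.6 and 80.0). On chromosome 18, 11 regions from 56244428 to 56578660 lay in 363 kb around chr18:56352728-56353800, already named among the 20 strongest. A last one, on chromosome 3 from 146773468 to 147667379, held 11 regions in 1119 kb with a highest lower score of 26.9. In 4 of the 6 stretches 1 region or more scored at least 50 in both sorted libraries, and the other members were mostly weak, with median lower scores of 8.04 to 12.4 over the 6.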

How the data were processed

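For ATAC-seq, 1 peak list per library was deposited, with the authors' −log10 p or q score per peak. Per the submitters' processing notes the build was mm9 and BWA, Picard, MACS2 and bedtools, and STAR and featureCounts, were used, and their roles and versions, read shifting and duplicate handling are not given in the sources used here. Numbering of peaks in the lists has gaps, so some had been filtered out. The RNA-seq values were deposited as raw read counts by the authors for 23762 gene symbols, 17257914 to 50235192 per library. Columns without a sample numbered 0.

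Peaks were merged at 1 bp in Python 3.11.15 (numpy 2.4.6, pandas 2.3.3, matplotlib 3.10.9), after the merging was checked on simulated lists. A region's score in a library is that of its highest peak, and gaps are measured from edge to edge. Counts were scaled to CPM with edgeR 4.0.16 (R 4.3.3, TMM) over 14862 genes. Of the small pre-B list 1 marker is not reported here and was left out of its sum. Groups came from the labels, and there was no test. The title of RNA IL7- replicate 2 writes spreb (small pre-B), where that of its fellow replicate writes preb. The count column of RNA IL7- CXCL12+ replicate 2 writes spreb, where its title writes preb. Both libraries were grouped by medium and replicate number.

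Regions named were the 20 strongest by lower score, the 10 widest, the strongest per chromosome, the 5 windows with most members and 5 regions on each side of the rule, of which some are printed. Members, lists and rules were chosen with earlier results of these data known. Gene annotation and sequences of mm9 were not used here, so nearest genes and their RNA were not analysed. The kappa locus and chromosomes 10 to 12, X and Y were left out of the regions by the rule. Alternatives were scores of at least 10, lists of equal length, shortened sorted lists, gaps of 500 bp, overlap of 50%, each library left out, CPM without TMM and, added after the data were seen, the omission of 2 groups of strong regions.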

Additional observations from a re-analysis of the deposited data

How the results depend on the processing

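Each setting called its own sorted-only regions, so its values are not those of the 13564. Equal lists, shortened sorted lists and scores of at least 10 gave these values in that order. The count was 2503 and 4397 under the first 2, and 11269 under the third (within 1.5 times). Of the 13564 regions 6021 (44.4%) were among these 11269, and the other 5248 regions counted overlapped none of them. The percent of all merged regions was 7.74, 10.4 and 28.0. The class of all 6 cultured lists and neither sorted one held 2083, 1293 and 308. The median score was 35.2, 23.5 and 21.3 in sorted replicate 1 and 28.2, 18.5 and 16.8 in replicate 2, and the median width 545, 496 and 504 bp. The percent with another sorted-only region within 10 kb was 10.0, 15.6 and 29.4, and with a cultured peak within 10 kb 49.0 and 44.2 for equal lists and scores of at least 10. These 3 settings remove low scores by construction, and the first 2 cut the sorted lists at higher scores than the cultured ones. Merging across gaps of 500 bp gave 22.8% of regions, 28.7% with another within 10 kb and 52.8% with a cultured peak, and an overlap of 50% without merging, which gives no percent of merged regions, a median width of 415 bp. Leaving out 1 library drops 1 condition of the rule, so the count could not fall. The counts were then 13650 to 21501, the highest without sorted replicate 2, and the percents 23.4 to 38.0. Median scores were 9.47 to 13.1 (replicate 1) and 8.95 to 10.0 (replicate 2), and median widths 387 to 449 bp. These omissions gave 32.2% to 43.2% with another within 10 kb, 53.9% to 55.8% with a cultured peak and 515 to 725 regions in the cultured class. CPM without TMM moved 47 of 96 RNA values by more than their group's SD. No paired analysis was made, because the results come from no test. Read depth, which is unknown for the peak lists, limits what the absence of a peak can show.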
